A study of Mus musculus with 36 samples.

Results

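The comparison described here is the 24 h interferon-beta response of BV-2 cells labelled as treated with siRNA against Usp18. BV-2 is a mouse microglial cell line that grows in culture and stands in for the macrophages of the brain. The members were chosen by their titles: 2 arrays of cells with Usp18 siRNA after 24 h of interferon-beta and 2 arrays of untreated (0 h) cells with the same siRNA, so 4 of the 36 arrays of the series. The interferon dose was 500 U/ml. Beside them stand the 2 arrays of Usp18 siRNA at 6 h and the 6 arrays of BV-2 cells given a control siRNA (2 each at 0, 6 and 24 h), 12 BV-2 arrays in all. The other arrays hold primary microglia from wild-type, Usp18 knockout and Usp18 C61A mice and are not described. All 12 arrays come from the same line, grown in the same medium with fetal calf serum, so a result holds for this line. The labels call the arrays of a group biological replicates and do not say whether they came from separate transfections, so a p-value measures the spread between these arrays.

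Interferon-beta binds a receptor of 2 chains, IFNAR1 and IFNAR2, to which the kinases TYK2 and JAK1 are attached. These phosphorylate STAT2, which acts with IRF9 at interferon-stimulated response elements before antiviral genes. USP18 is itself made from such a gene. It removes the ubiquitin-like protein ISG15 from its targets and, separately, sits on IFNAR2 and limits further signalling, so that cells normally become less responsive after the first hours. The design follows the response in BV-2 cells whose Usp18 was targeted.

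The deposited values are levels on a log2 scale, where a difference of 1 is a doubling. The median over all probe sets of an array lay between 5.59 and 5.74, and a level under 5.59, the lowest of these medians, is called dim below. A gene entered the test if its probe set lay above the array median on at least 2 of the 12 arrays, which left 7163 genes. The test was limma's moderated test over all 12 arrays with Benjamini-Hochberg adjustment, and a gene rose or fell where the adjusted p was under 0.05. Arrays with the same replicate number deviated together, so a second fit held that number as a block, and its values stand beside the calls and counts it changed. No pair of BV-2 arrays held identical values, and pairs correlated between 0.939 and 0.995. The 24 h arrays of Usp18 siRNA correlated at 0.981 with each other, the untreated ones at 0.992.

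Some arrays stood apart. Replicate 2 at 6 h of Usp18 siRNA had 27 genes more than 2 above all other BV-2 arrays, among them C1qc at 10.28 against 3.54 to 6.81 elsewhere. It enters through the shared estimate of the spread and the filter. Replicate 2 at 24 h, a member, had 9 such genes, among them Il6, Il1b, Csf3 and Ccl8, and 1 gene more than 2 below all others. No other member had any. The 12 measured macrophage markers lay above 5.59 on all 4 member arrays, with a mean of 10.27 to 10.72 in untreated cells and 10.81 to 10.92 at 24 h. Markers of resting microglia were mostly dim: 2 of 11 lay above 5.59 on all 4 arrays and 5 lay below on all 4, including P2ry12 (2.75 to 3.54) and Sall1 (3.26 to 3.60). Markers of other cells were dim on all 4 arrays for 8 of 10 in astrocytes, 6 of 8 in oligodendrocytes, 8 of 8 in neurons, 8 of 9 in fibroblasts and endothelium, 4 of 7 in border macrophages, 5 of 7 in monocytes and granulocytes, and 8 of 8 in lymphocytes. Only part of these markers passed the filter: all 12 of macrophages, 6 of resting microglia and at most 3 of each other list. Of those tested 2 rose, Selplg by 1.05 ± 0.24 (SE) and Cnp by 1.16 ± 0.26, while 6.62% of all genes tested did. The monocyte marker Plac8 was not tested, at 3.15 and 3.68 untreated and at 8.71 and 5.42 at 24 h. With the replicate block the macrophage marker Aif1 rose too, by 2.87 (adjusted p = 0.0219). The border macrophage marker Mrc1 then fell, with a change of -1.17 (adjusted p = 0.027). Over all genes 10.9% rose and 17.8% fell in that fit. Olfml3, of the resting markers, went from 4.25 and 4.85 to 6.04 and 8.14 and passed in neither fit.

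The targeted transcript did not show the knockdown. Usp18, read by 1 probe set, was at 7.92 and 9.0 on the untreated arrays labelled Usp18 siRNA and at 8.38 and 8.59 on those with control siRNA. At 6 h it was at 11.10 and 12.49 against 12.15 and 12.04. Replicate 1 lay below both control arrays and replicate 2, the array that stands apart, above both. At 24 h Usp18 was at 11.07 and 11.48 against 11.51 and 11.73. The arrays overlapped at 0 and 6 h and lay apart at 24 h, those labelled Usp18 siRNA lower. The difference between the siRNAs was -0.02 ± 0.45 (SE) at 0 h, -0.29 ± 0.45 at 6 h and -0.34 ± 0.45 at 24 h, with adjusted p of 1, 0.763 and 0.632 in limma. Protein was not measured. Every direction given below for the siRNA therefore rests on the label. Within the arrays labelled Usp18 siRNA the transcript rose by 2.81 ± 0.45 (adjusted p = 0.00753), and with control siRNA by 3.13 ± 0.45 (adjusted p = 0.0209).

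Promoter stretches of 5 of the most risen genes are shown because they hold the core of the interferon-stimulated response element, a GAAA followed after any 2 bases by another GAAA, searched on both strands in the 250 bases before the start site. Capitals mark the motif, which reads as TTTC, any 2 bases and TTTC where it lies on the opposite strand. The sequences are from RefSeq, build GRCm38.p6, and read along the strand of the gene.
Cxcl10, chr5:92349068-92349127, minus strand: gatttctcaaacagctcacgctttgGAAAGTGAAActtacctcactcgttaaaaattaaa
Gbp2, chr3:142620579-142620638, plus strand: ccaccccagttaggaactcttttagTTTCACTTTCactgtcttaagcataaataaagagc
Ddx60, chr8:61928034-61928086, plus strand: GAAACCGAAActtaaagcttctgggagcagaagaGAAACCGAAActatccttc
Ifit1, chr19:34640779-34640838, plus strand: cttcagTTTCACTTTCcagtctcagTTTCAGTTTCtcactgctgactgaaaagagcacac
Ifit3, chr19:34583373-34583441, plus strand: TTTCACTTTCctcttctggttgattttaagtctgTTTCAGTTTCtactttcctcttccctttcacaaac
Ddx60, Ifit1 and Ifit3 hold the motif more than once, and in Ddx60 the last motif ends 9 bases before the start site, against 203 in Cxcl10. Of the 15 largest rises 12 had a window in the table and 5 of these held the motif (41.7%). Among the 474 genes that rose, 393 had windows, and 9.76% of their 533 windows held it. The share was 17.7% of 141 windows of genes that rose by at least 2 and 2.67% of 675 windows of genes that fell. It was 2.9% of the 7659 windows of genes tested and 2.98% of all 32851 windows. TTCNNNGAA, the core to which STAT dimers bind, was searched in the same windows and counted separately. It was in 9.94% of the windows of risen genes and 5.48% of those of fallen genes. The share was 5.59% for all genes tested and 7.02% for all windows. It was in 0 of the 12 windows of the 15 largest rises. A match describes the letters and was not tested as a binding site.

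After 24 h, 474 of 7163 genes (6.62%) were higher and 662 (9.24%) lower on the arrays labelled Usp18 siRNA, 1136 in all (15.9%). With the replicate block 779 were higher (10.9%) and 1272 lower (17.8%), and these included all of the 474 and 662. Both 24 h arrays lay above both untreated ones in 1793 genes (25% of those tested) and below them in 2692 (37.6%), the called genes included. The rises were the larger changes: 338 reached 1 on the log2 scale, 134 reached 2, 58 reached 3 and 22 reached 4. Of the falls 257 reached 1 and 9 reached 2. The median change was 1.36 for genes that rose, -0.93 for genes that fell and -0.11 for all genes tested. Where each array was centred on its median the split was 494 higher to 430 lower, and after quantile normalization 513 to 442. These scalings moved the median of all genes to -0.05 each, so the excess of falls depends on the scaling.

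The counts rest on particular arrays. Without untreated replicate 1, 51 genes were higher and 4 lower, and without untreated replicate 2 180 and 36. Leaving out 24 h replicate 1 gave 764 and 1403, and leaving out 24 h replicate 2 gave 92 and 16. The control arrays entered through the shared spread and the filter, and without any 1 of the 4 at 0 and 24 h the counts were 337 to 362 higher and 377 to 439 lower. With the 4 member arrays alone 11 were higher and 0 lower. The replicates differed in size: genes that rose had a median change of 1.14 between the arrays numbered 1 and 1.54 between those numbered 2, and genes that fell -0.73 and -1.10. At 24 h, replicate 2 was above replicate 1 in 428 of the 474 risen genes and below it in 603 of the 662 fallen genes, beside 3092 above and 4071 below over all genes. Untreated replicate 2 was also the higher in 362 of the 474 (3526 of 7163 over all). Of 79 named genes called here, 62 lost the call without untreated replicate 1, 57 without 24 h replicate 2, 28 without untreated replicate 2 and 2 without 24 h replicate 1.

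The largest rise was that of Cxcl10, a ligand of the receptor CXCR3 that draws activated T cells. It was at 5.31 and 6.70 on the untreated arrays, 11.99 and 12.42 at 6 h and 12.20 and 12.80 at 24 h. The change at 24 h was 6.49 ± 0.42 (SE, 90.2-fold, adjusted p = 0.000219). Il6, an inflammatory cytokine, was next, from 3.95 and 5.67 to 10.01 and 12.53, a change of 6.46 ± 0.91. The 24 h arrays lie far above the untreated ones in both genes, but for Il6 they are themselves well apart. Gbp2, Cxcl11, Iigp1, Mx1, Ccl12, Ccl8, Ddx60, Ifit1, Cmpk2, Ifi209, F8, Slamf7 and Ifit3 completed the 15 largest rises, at 6.12 down to 4.80. Ddx60, an RNA helicase of antiviral defence, went from 2.70 and 3.34 to 7.57 and 8.81. Slamf7, a receptor of the SLAM family on leukocytes, went from 3.25 and 6.62 to 8.82 and 10.69. In 55 of the 474 risen genes, Il6, Cxcl11, Iigp1, Ddx60, Cmpk2, F8 and Slamf7 among them, the untreated mean was dim, so the size of the rise is uncertain.

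**Figure D1:**
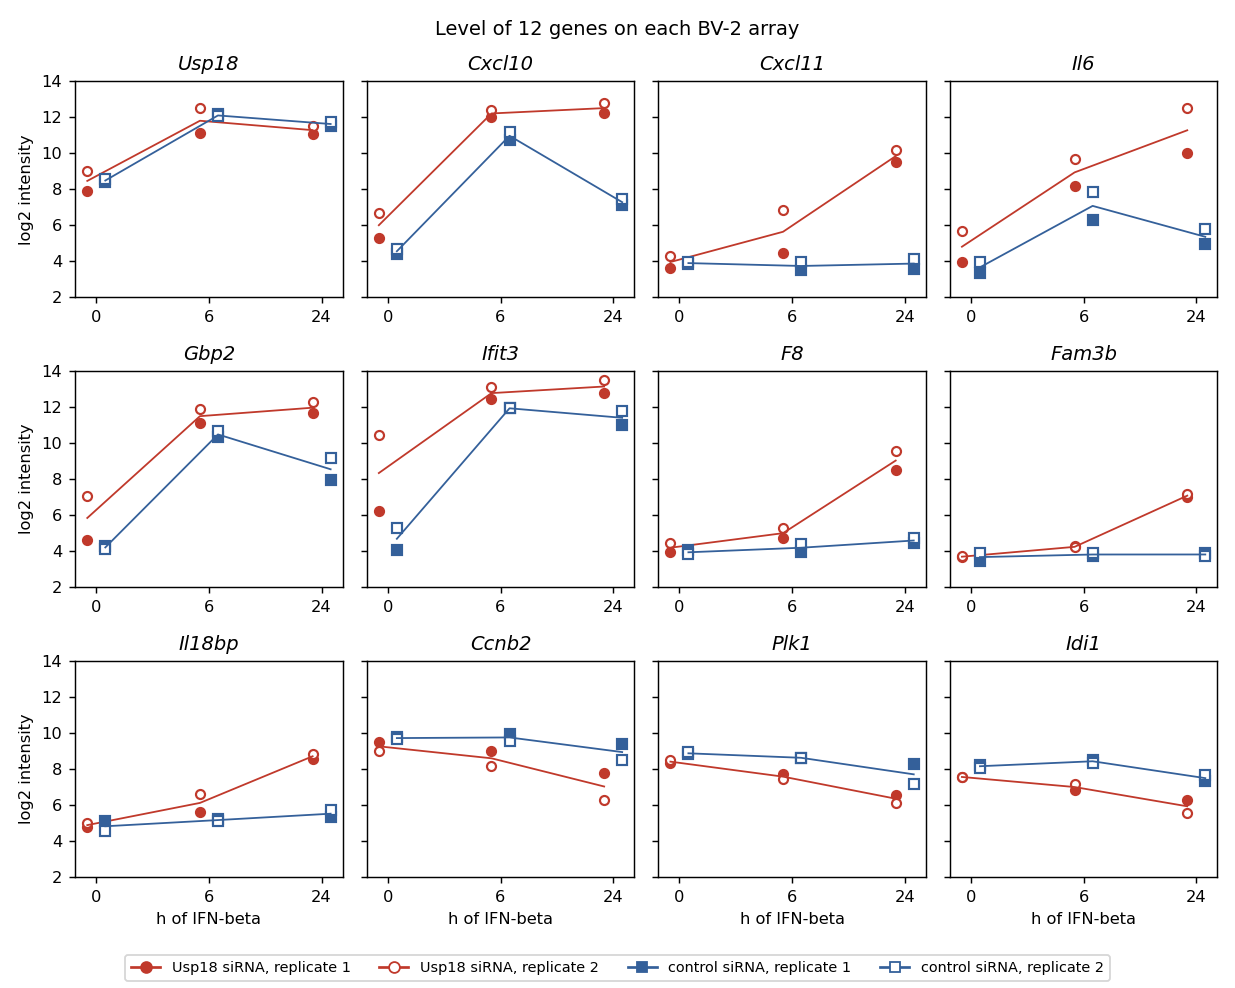
Level (log2 intensity, y axis) of 12 genes on each BV-2 array after 0, 6 and 24 h of interferon-beta (x axis, not to scale), with lines through the group means. Filled and open signs are replicates 1 and 2. Cxcl10 stays at 12.20 and 12.80 at 24 h on the arrays labelled Usp18 siRNA and is at 7.10 and 7.47 with control siRNA. Usp18 itself overlaps the control at 0 and 6 h and lies lower at 24 h, with 6 h replicate 1 at 11.10 against 12.15 and 12.04.

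Of the genes that conjugate or remove ISG15, 4 were measured and 3 rose: Usp18, Uba7 and Ube2l6. Uba7, the enzyme that activates ISG15, was at 6.44 and 7.28 and reached 9.0 and 9.48 (2.38 ± 0.39). Ube2l6, the conjugating enzyme, went from 6.30 and 6.87 to 7.68 and 8.18 (1.34 ± 0.25). Trim25, a ligase that can attach ISG15, stood at 11.18 and 11.54 and then at 11.97 and 11.71, and did not pass (adjusted p = 0.208). All 4 had both 24 h arrays above both untreated ones, as had 25% of all genes tested. None of the 3 calls remained without untreated replicate 1 or without 24 h replicate 2.

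Of 19 measured genes of the receptors, kinases, STATs and IRFs 18 passed the filter, 7 rose and 0 fell. Those that rose were Irf7 (3.52 ± 0.60), Irf1 (3.47 ± 0.29), Stat2 (2.88 ± 0.56), Jak2 (2.59 ± 0.36), Tyk2 (1.72 ± 0.24), Irf2 (1.50 ± 0.32) and Irf9 (1.43 ± 0.36). Irf1, a factor that drives class I and other interferon-gamma-like targets, was at 7.15 and 7.56 untreated, 9.75 and 10.13 at 6 h and 10.37 and 11.28 at 24 h. Irf7, which amplifies interferon gene transcription, differed between the untreated arrays (6.94 and 9.04) and reached 11.11 and 11.90. Jak2, a kinase of the interferon-gamma and many cytokine receptors, went from 6.85 and 6.85 to 8.85 and 10.03.

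The receptor chains of interferon-beta had smaller changes. Ifnar1 was at 6.74 and 6.86 before and 6.83 and 7.54 after, and Ifnar2 at 9.35 and 9.49 before and 10.18 and 9.70 after. Neither passed (adjusted p = 0.308 and 0.101), but Ifnar2 did with the replicate block (0.0491). Jak1, the kinase bound to IFNAR2, changed by 0.31 ± 0.25, and Stat3 by 1.02 ± 0.39 (adjusted p = 0.101). Irf5, a factor of inflammatory cytokine genes, changed by 1.01 ± 0.41 (adjusted p = 0.121, and 0.0143 with the block), and the interferon-gamma receptor chain Ifngr1 by -0.57 ± 0.25 (adjusted p = 0.151). Irf3 and Irf8, factors of virus sensing and of the macrophage lineage, changed by -0.08 each. Fewer of these genes rose without untreated replicate 1 or without 24 h replicate 2. Without 24 h replicate 1 more of them rose, and a fall passed as well. The median change of all 19 was 0.52, beside 0.02 over all measured genes of the array.

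Among the 9 SOCS genes and related inhibitors, which end cytokine signalling, 1 rose, beside 6.62% of all genes tested. Socs3 was at 7.72 and 8.21 and then at 9.47 and 11.40 (2.47 ± 0.59, adjusted p = 0.0264). Socs1, the inhibitor most tied to interferon receptors, was dim at 4.08 on both untreated arrays and at 5.22 and 7.49 at 24 h (adjusted p = 0.0545). Replicate 2 was well above replicate 1 at 24 h in both genes. Socs2 (0.99 ± 0.34) and Socs4 (0.54 ± 0.16) did not pass, and Socs5 and Socs6 changed by 0.03 and -0.08. With the replicate block 4 of the 9 rose, Socs1, Socs2 and Socs4 as well (adjusted p = 0.0135, 0.0241 and 0.025), beside 10.9% of all genes. The Socs3 call was lost without either untreated array and without 24 h replicate 2.

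Antiviral effectors, which bind viral RNA, block viral polymerases or degrade RNA, made up the broadest rise. Of 23 measured genes 22 passed the filter and 21 of those rose; 0 fell. Mx1, a GTPase that restricts influenza virus, was at 4.26 and 7.89 untreated and at 11.19 and 12.48 at 24 h (5.76 ± 1.01). Ifit1, which binds viral RNA lacking a host cap, went from 5.01 and 8.63 to 11.19 and 12.68 (5.12 ± 1.11). Ifit3, its partner, went from 6.25 and 10.42 to 12.79 and 13.49 (4.80 ± 1.06). In all 3 the untreated replicate 2 was far above replicate 1. The groups did not overlap, which the choice of the 15 largest rises required.

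The same list held genes with closer replicates. Oas1b of the oligoadenylate synthetase family was at 5.62 and 6.38 and then at 8.75 and 9.31 (3.04 ± 0.26, adjusted p = 0.000584). Isg20, an RNA exonuclease, went from 8.30 and 8.93 to 11.74 and 12.36 (3.44 ± 0.41). Rsad2 (viperin), Rtp4, Oas2, Oasl2, Samhd1, Adar, Ifitm3, Apobec3 and Bst2 rose by 2.96 down to 1.37. Eif2ak2, the kinase PKR, was at 8.07 and 9.13 and then at 9.20 and 9.84 and did not pass (adjusted p = 0.106). Cmpk2, a mitochondrial nucleotide kinase, rose by 5.01 ± 1.48 with an adjusted p of 0.0494. The calls in the list numbered 4 without untreated replicate 1, 18 without untreated replicate 2, 19 without 24 h replicate 1 and 2 without 24 h replicate 2.

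The mean level of the 23 antiviral genes was 7.16 and 8.66 on the untreated arrays labelled Usp18 siRNA, against 6.34 and 6.66 with control siRNA. It reached 9.81 and 10.55 at 6 h and 10.36 and 11.05 at 24 h. With control siRNA it was 9.50 on both 6 h arrays and 8.98 and 9.25 at 24 h. Untreated replicate 2 was thus the highest of the 4 untreated arrays, and the 24 h arrays of Usp18 siRNA were the highest of the 4 at that time.

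**Figure D2:**
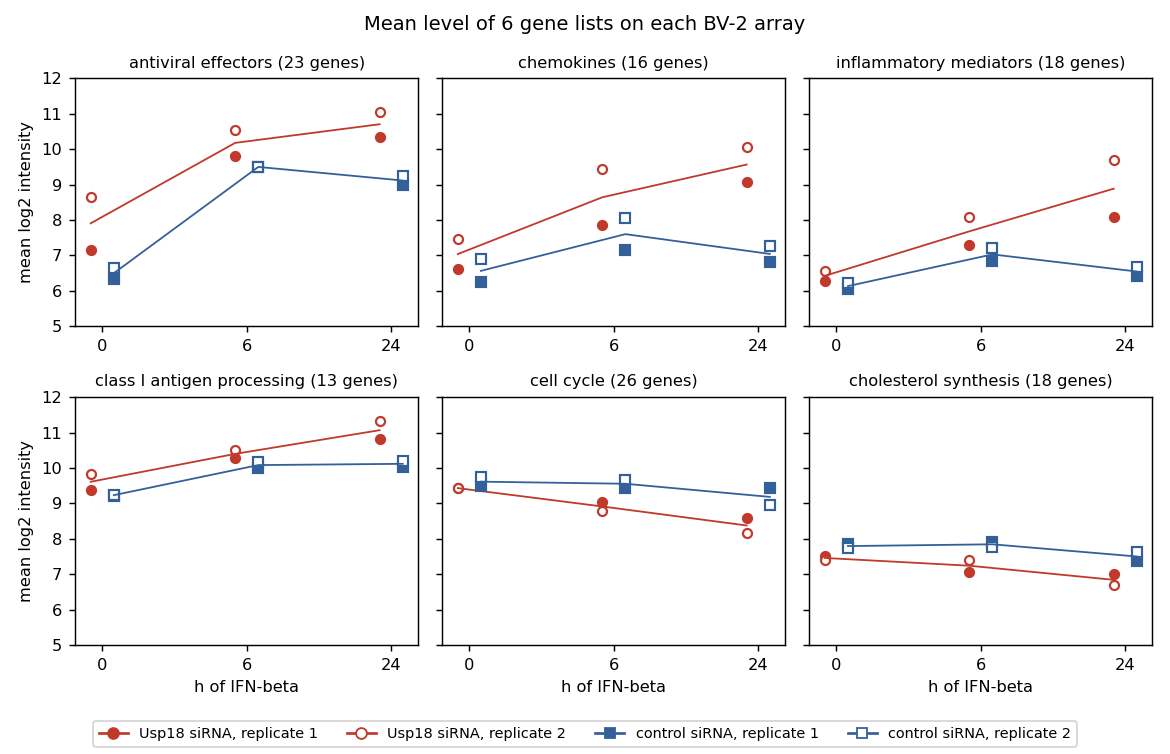
Mean level (log2 intensity, y axis) of all measured genes of 6 lists on each BV-2 array by time of interferon-beta (x axis, h, not to scale). Lines join group means. The antiviral mean is 10.36 and 11.05 at 24 h on the arrays labelled Usp18 siRNA and 8.98 and 9.25 with control siRNA, and the cell cycle and cholesterol lists lie lowest at 24 h with Usp18 siRNA.

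The interferon-inducible GTPases coat and break the vacuoles of intracellular pathogens. Of 10 measured 9 passed the filter and all 9 rose. Gbp2 was at 4.64 and 7.05 and then at 11.66 and 12.27 (6.12 ± 0.69, adjusted p = 0.00234). Iigp1 went from 3.87 and 7.16 to 10.58 and 12.01 (5.78 ± 1.17), Ifi47 from 4.66 and 7.34 to 9.87 and 11.58 (4.73 ± 0.84), and Igtp from 7.34 and 8.44 to 11.49 and 12.46 (4.09 ± 0.43). Irgm2, Gbp3, Gbp6, Gbp7 and Irgm1 rose by 4.02 down to 2.60. The median over all 10 was 3.91. Calls numbered 5 without untreated replicate 1 and 6 without 24 h replicate 2, and 9 without either of the others. Members of this family are alike in sequence, and probe sets may share signal between them.

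Sensors of foreign nucleic acid rose in 7 of 10 genes that passed the filter, of 13 measured. Ifi209, of the IFI200 family that binds DNA, was at 5.35 and 8.10 and reached 11.06 and 12.24 (4.93 ± 0.81). Tlr3, the endosomal receptor for double-stranded RNA, went from 4.74 and 6.21 to 9.36 and 10.55 (4.48 ± 0.55, adjusted p = 0.00328). Zbp1, which senses Z-form nucleic acid, rose by 3.81 ± 0.59, Ifi204 by 2.31 ± 0.37, Dhx58 by 2.09 ± 0.29, Tlr7 by 1.85 ± 0.51 and Aim2 by 1.33 ± 0.21. The adaptors did not pass: Myd88 changed by 0.79 ± 0.35, Sting1 by 0.55 ± 0.22 and Mavs by -0.42 ± 0.20. Myd88 and Sting1 passed with the replicate block (adjusted p = 0.0193 and 0.0419). The 7 calls were 2 without untreated replicate 1 and 2 without 24 h replicate 2.

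Of 5 measured Schlafen genes, which restrain growth and viral translation, 4 passed the filter and 3 rose. Slfn4 was at 7.79 and 10.93 and then at 12.56 and 13.27 (3.55 ± 0.88). Slfn8 rose by 3.38 ± 0.82 and Slfn2 by 2.22 ± 0.56. Of 11 TRIM, PARP and nuclear body genes 9 rose, led by Parp14 (3.16 ± 0.69), Trim34a (3.14 ± 0.49), Trim21 (2.99 ± 0.46) and Trim30a (2.95 ± 0.48). Trim21, a cytosolic antibody receptor and ubiquitin ligase, went from 6.83 and 7.23 to 9.40 and 10.64. Trim26 and Trim30d did not pass, though Trim30d did with the replicate block (adjusted p = 0.033). Without untreated replicate 1 neither list held a call, and without 24 h replicate 2 they held 0 and 3.

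All 16 chemokines of the list were measured, 13 passed the filter and 5 rose: Cxcl10, Cxcl11, Ccl12, Ccl8 and Ccl3. Cxcl11, a CXCR3 ligand like Cxcl10, was dim at 3.64 and 4.28 untreated, at 4.45 and 6.83 at 6 h and at 9.52 and 10.16 at 24 h (5.87 ± 0.63, adjusted p = 0.00208). Ccl12 and Ccl8, which draw monocytes, went from 4.37 and 7.10 to 9.99 and 12.36 (5.44 ± 1.35) and from 4.33 and 7.72 to 10.24 and 12.30 (5.24 ± 1.24). Their groups did not overlap, which the choice of the largest rises required, and replicate 2 was well above replicate 1 in both groups.

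Ccl3, an attractant for macrophages that BV-2 cells already held at 12.60 and 12.46, reached 13.07 and 13.34 (0.68 ± 0.16). Ccl5 was at 6.70 and 9.63 and then at 11.84 and 12.44, and its change of 3.98 ± 1.35 did not pass (adjusted p = 0.0736). Ccl2, Ccl7 and Cxcl2 changed by 1.90 ± 0.62, 2.74 ± 1.00 and 2.83 ± 1.11 and did not pass. Ccl6 and Ccl9 changed by 0.08 and 0.42. Of the 13, 10 rose with the replicate block, among them Ccl5 (adjusted p = 0.0016), Ccl2 (0.00714), Ccl7 (0.00793), Cxcl2 (0.0205) and Ccl9 (0.0472). The calls were 2 without untreated replicate 1, 3 without untreated replicate 2, 8 without 24 h replicate 1, 2 without 24 h replicate 2 and 7 without replicate 2 at 6 h.

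Of 18 inflammatory mediators and co-stimulatory molecules 17 passed the filter and 11 rose; 0 fell. Il18bp, a secreted inhibitor of IL-18, was at 4.77 and 5.01 untreated, 5.64 and 6.61 at 6 h and 8.56 and 8.86 at 24 h (3.82 ± 0.32, adjusted p = 0.0005). Il18 itself rose by 2.72 ± 0.20. Il15, which sustains natural killer and memory T cells, went from 7.06 and 6.56 to 9.51 and 10.28 (3.09 ± 0.30). The co-stimulators Cd40 (3.75 ± 0.48), Cd86 (3.03 ± 0.27) and Cd80 (1.54 ± 0.41) and the checkpoint ligand Cd274 (3.34 ± 0.62) all rose. So did Tnfsf10, the death ligand TRAIL (2.99 ± 0.50), the IL-1 receptor antagonist Il1rn (2.93 ± 0.59) and the inducible nitric oxide synthase Nos2, from 5.74 and 5.31 to 7.32 and 8.48 (2.38 ± 0.41).

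Il6, described above, was 1 of the 11, while other early cytokines of the list did not pass. Tnf was at 8.52 and 9.21 and then at 9.34 and 10.81 (adjusted p = 0.186, and 0.00834 with the replicate block). Il1b was at 5.82 and 6.41 and then at 5.80 and 9.42, so only 24 h replicate 2 was high. Il1a and Ptgs2 changed by 0.14 ± 0.63 and 0.58 ± 0.65, and Tgfb1 by -0.18 ± 0.37. The 11 calls were 5 without untreated replicate 1, 6 without untreated replicate 2 and 6 without 24 h replicate 2.

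Genes that cut, carry and load peptides for class I molecules rose in 12 of 13 measured, all of which passed the filter. Tapbpl, a peptide editor, went from 4.94 and 5.98 to 7.69 and 8.98 (2.87 ± 0.48). Tap1 and Tap2, the 2 chains of the peptide transporter, rose by 2.10 ± 0.36 and 1.97 ± 0.16. Tap2 had close replicates, at 7.10 and 7.13 and then at 9.02 and 9.15 (adjusted p = 0.000446). The immunoproteasome subunits Psmb9 (2.04 ± 0.23), Psmb10 (1.93 ± 0.42) and Psmb8 (0.84 ± 0.16) rose, and so did the activator Psme1 (1.16 ± 0.19).

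The heavy chains H2-K1 and H2-D1, already at 12.19 to 12.83 untreated, rose by 0.70 ± 0.17 and 0.59 ± 0.17. B2m was at 13.14 and 13.26 and then at 13.42 and 13.44 and did not pass (adjusted p = 0.244). By contrast none of the 14 constitutive proteasome subunits passed, with changes from -0.31 to 0.31 and a median of -0.02. Of 6 measured class II genes only Cd74 passed the filter, and it changed by -0.20 ± 0.44. The class I calls were 2 without untreated replicate 1, 9 without untreated replicate 2 and 3 without 24 h replicate 2.

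**Figure D3:**
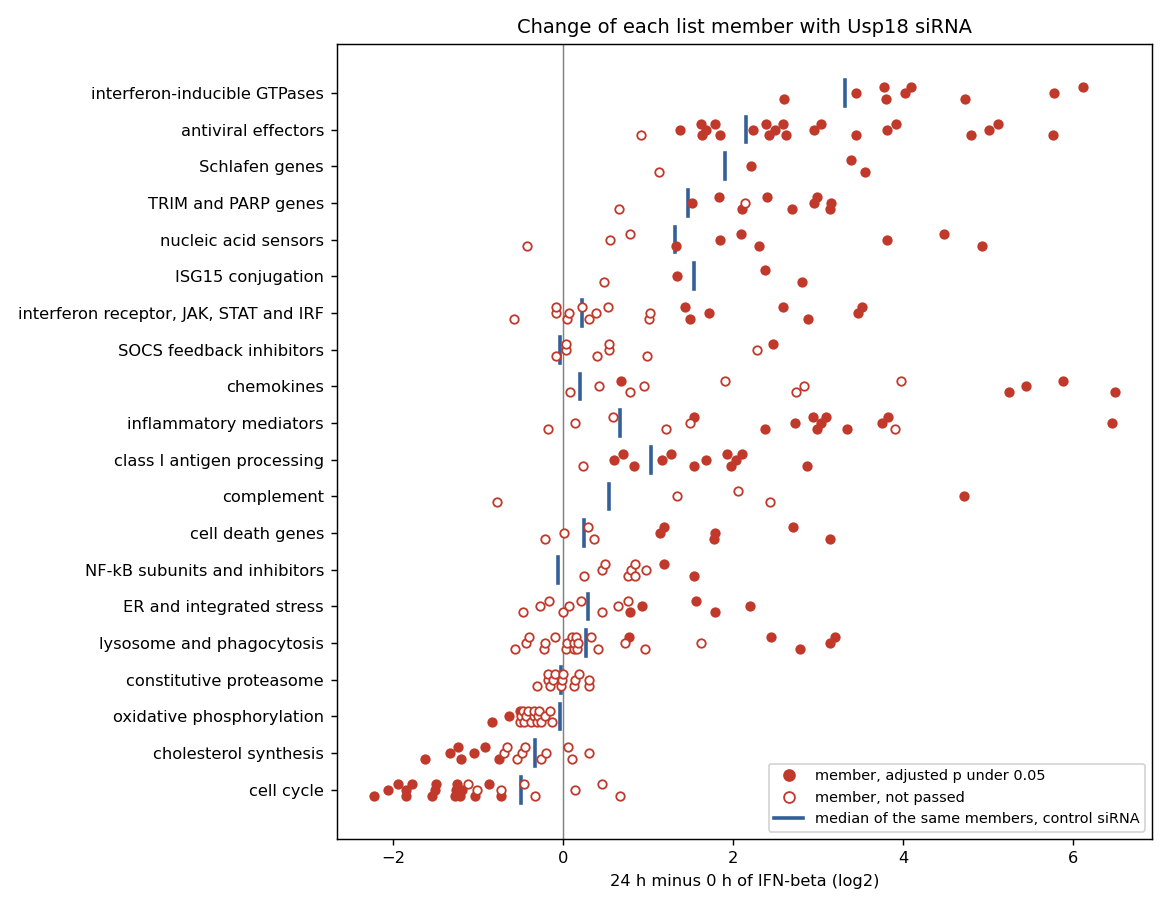
Change of each gene that passed the filter between 0 and 24 h on the arrays labelled Usp18 siRNA (x axis, log2) by gene list (y axis). Filled points passed limma's test at an adjusted p under 0.05, open points did not, and the blue bar is the median change of the same genes with control siRNA. The GTPases lie between 2.60 and 6.12, the proteasome near 0 and most of the cell cycle list below 0.

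NF-kB subunits and inhibitors passed in 2 of 10, both higher, beside 6.62% of all genes tested. Nfkbie, an inhibitor of NF-kB, was dim at 4.70 and 4.73 and then at 6.00 and 6.51 (1.54 ± 0.20), and the adhesion molecule Icam1 went from 7.83 and 8.15 to 9.0 and 9.36 (1.19 ± 0.35). Nfkbia, Rela, Relb and Tnfaip3 changed by 0.46 to 0.84 and did not pass, although both 24 h arrays lay above both untreated ones in 9 of the 10 genes (25% of all genes tested). Nfkbia passed with the replicate block (adjusted p = 0.0484). Without 24 h replicate 2 there was no call, without either untreated array 1, and without 24 h replicate 1 there were 5. Nfkbie failed the filter once either 24 h array was left out.

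Cell death genes passed in 6 of 10 that entered the test, of 12 measured. Daxx, a death and chromatin adaptor, was at 7.90 and 8.50 and then at 10.86 and 11.82 (3.14 ± 0.32, adjusted p = 0.0015). The inflammatory caspases Casp4 and Casp1 rose by 2.70 ± 0.30 and 1.77 ± 0.25, the death receptor Fas by 1.79 ± 0.22, Casp8 by 1.19 ± 0.31 and Tnfrsf1a by 1.14 ± 0.25. The BCL-2 family genes Bcl2l1, Bak1 and Bcl2l11 changed by 0.37, 0.29 and 0.01, and Ripk3 by -0.21. The 6 calls were 3 without untreated replicate 1, 4 without untreated replicate 2 and 4 without 24 h replicate 2.

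Of 9 measured complement genes 5 passed the filter and 1 rose, beside 6.62% of all genes tested. Cfb, the protease of the alternative pathway, was dim at 3.74 and 4.97 and then at 8.61 and 9.54 (4.72 ± 0.69). C1qb was at 4.64 and 6.81 and then at 6.89 and 9.43, and C3ar1 at 8.62 and 9.89 and then at 10.56 and 12.06. Neither passed (adjusted p = 0.387 and 0.0841), and with the replicate block C3ar1 did (0.00494), for 2 calls in the list. Both genes were highest or nearly so on replicate 2 at 6 h, the array that stands apart, and without it 2 complement genes rose. Without untreated replicate 1 or 24 h replicate 2 the Cfb call was lost.

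In the lysosome and phagocytosis list 5 of 24 rose, beside 6.62% of all genes tested. They were the Fc receptors Fcgr1 (3.20 ± 0.94) and Fcgr4 (2.79 ± 0.54), the receptor kinase Axl (3.14 ± 0.43), Lgals3bp (2.44 ± 0.61) and Lamp2 (0.78 ± 0.21). Axl, which binds the ligand that marks dying cells, went from 3.27 and 3.46 to 6.78 and 6.23. Several proteases and structural genes hardly moved: Ctsd, Ctsb, Ctsl, Ctsz, Lamp1, Gpnmb and Apoe changed by -0.22 to 0.33 and did not pass. The proteases Ctss and Ctsc changed by 0.41 and 0.97 and did not pass, but Ctss did with the replicate block (adjusted p = 0.0429). The list's median was 0.16. Of the 24, 8 rose with the replicate block, beside 10.9% of all genes. The rises depended on the arrays used: fewer or none passed once a member array was left out. Without 24 h replicate 1 a fall passed as well. Axl failed the filter once either 24 h array was left out.

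Stress genes rose in 5 of 14, with 16 measured, beside 6.62% of all genes tested. Ddit3, the transcription factor CHOP, was at 8.50 and 10.35 and then at 11.41 and 11.83 (2.20 ± 0.54). Atf3 (1.79 ± 0.42), Trib3 (1.56 ± 0.45), Ppp1r15a (0.93 ± 0.27) and Sesn2 (0.79 ± 0.20), all targets of the integrated stress response, rose as well. The chaperone Hspa5 and the factor Xbp1, of the unfolded protein response, were at 12.19 to 12.63 and at 10.33 to 10.53 on all 4 arrays. Neither passed. With the replicate block 6 stress genes rose, Atf4 as well (adjusted p = 0.021), beside 10.9% of all genes tested. There was no call without untreated replicate 1 or 24 h replicate 2, 1 without untreated replicate 2 and 7 without 24 h replicate 1.

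The falls were led by genes of cell division. Of 26 measured cell cycle genes 25 passed the filter, 17 fell and 0 rose. With the replicate block 18 fell, beside 17.8% of all genes tested. Ccnb2, the cyclin of entry into mitosis, was at 9.53 and 8.99 and then at 7.81 and 6.26 (-2.23 ± 0.50). Plk1, a mitotic kinase, went from 8.33 and 8.50 through 7.74 and 7.42 at 6 h to 6.57 and 6.14 at 24 h (-2.06 ± 0.32, adjusted p = 0.00687). Cdc20 (-1.94 ± 0.35), Aurkb (-1.84 ± 0.40), Mki67 (-1.84 ± 0.47) and Ccna2 (-1.77 ± 0.29) fell too. In an array of whole cells, fewer dividing cells and less of these transcripts in each cell cannot be told apart.

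The replication helicase genes fell less, Mcm2 by 1.25, Mcm3 by 1.26, Mcm4 by 1.03, Mcm7 by 0.87 and Mcm5 by 0.73 on the log2 scale, while Mcm6 and Pcna did not pass. The inhibitors Cdkn1a and Cdkn1b and the cyclin Ccnd1 changed by 0.67, 0.14 and 0.46 and did not pass. The median change over the 26 was -1.20. The 17 calls were 0 without untreated replicate 1, 1 without untreated replicate 2 and 0 without 24 h replicate 2, and 16 without 24 h replicate 1 or with either other scaling.

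Cell division also filled most of the 10 largest falls. Cenpa, the histone of the centromere, went from 9.18 and 8.86 to 7.65 and 5.72 (-2.33 ± 0.51). Depdc1a, Cenpe, Aspm, Ccnb2, Plk1 and Kif20a, genes of mitosis and the spindle, fell by 2.49, 2.08, 2.07, 2.23, 2.06 and 2.04. The single largest fall was that of Cytip, an adaptor of leukocyte adhesion, from 9.30 and 8.36 to 7.13 and 5.49 (-2.52 ± 0.69, adjusted p = 0.041). Hmgb3, a chromatin protein, and Nefh, a neurofilament chain, fell by 2.04 and 1.97. In all 10 the 24 h replicate 2 was the lowest of the 4 arrays. In 63 of the 662 fallen genes, Depdc1a, Cenpe and Aspm among them, the 24 h mean was dim, so the size of the fall is uncertain.

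Cholesterol synthesis fell in 7 of 17 genes that passed the filter, beside 9.24% of all genes tested. Of the list 18 were measured, and 0 rose. With the replicate block 9 fell, beside 17.8% of all genes, with Hsd17b7 and Lss among them (adjusted p = 0.0361 and 0.0323). Idi1, an isomerase of the mevalonate pathway, was at 7.58 and 7.54 and then at 6.29 and 5.58 (-1.63 ± 0.24, adjusted p = 0.00628). Stard4, a sterol carrier (-1.33 ± 0.24), Sqle (-1.24 ± 0.35), Fdps (-1.20 ± 0.32), Msmo1 (-1.04 ± 0.23), Hmgcs1 (-0.92 ± 0.23) and Dhcr7 (-0.75 ± 0.22) fell. Another probe set of Fdps changed in the opposite direction. Mvk and Cyp51 changed by 0.30 and 0.11 and the sterol exporter Abca1 by 0.05. The 7 calls were 5 with either other scaling, 0 without untreated replicate 1, 2 without untreated replicate 2, 1 without 24 h replicate 2 and 9 without 24 h replicate 1.

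All 19 measured genes of oxidative phosphorylation had a negative change, from -0.83 to -0.13 with a median of -0.38, and 3 fell, beside 9.24% of all genes tested. These were Ndufs1 (-0.83 ± 0.14), Ndufa4 (-0.64 ± 0.15) and Atp5a1 (-0.51 ± 0.14). Ndufs1, a subunit of complex I, went from 10.40 and 10.52 to 9.62 and 9.64. Both 24 h arrays lay below both untreated ones in 18 of the 19 (37.6% of all genes tested). With the replicate block 7 fell, beside 17.8% of all genes. No call was left without either untreated array or without 24 h replicate 2, and 7 were called without 24 h replicate 1.

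With control siRNA 36 genes (0.503%) rose over the same 24 h and 0 (0%) fell, or 100 (1.4%) and 7 (0.0977%) with the replicate block, with 652 at an unadjusted p under 0.05 against 2396 with Usp18 siRNA. All 36 also rose with Usp18 siRNA, where they made up 3.17% of the calls. That control count was 2 without untreated control replicate 1, 8 without untreated control replicate 2 and 1 without either 24 h control array. The order of the counts of the 2 siRNAs depends on which arrays enter the fit. With only the arrays of the groups compared, 84 genes rose and 1 fell with control siRNA, against 11 and 0 with Usp18 siRNA. Over the 7163 genes the changes with the 2 siRNAs correlated at r = 0.64, and at 0.79 over the 1136 called with Usp18 siRNA. Genes are not independent replicates, and the responses have no array in common. The genes that rose with Usp18 siRNA had a median change of 0.49 with control siRNA and those that fell -0.30. The change was larger with Usp18 siRNA in 442 of the 474 rises and in 660 of the 662 falls, genes that were chosen by that change.

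**Figure D4:**
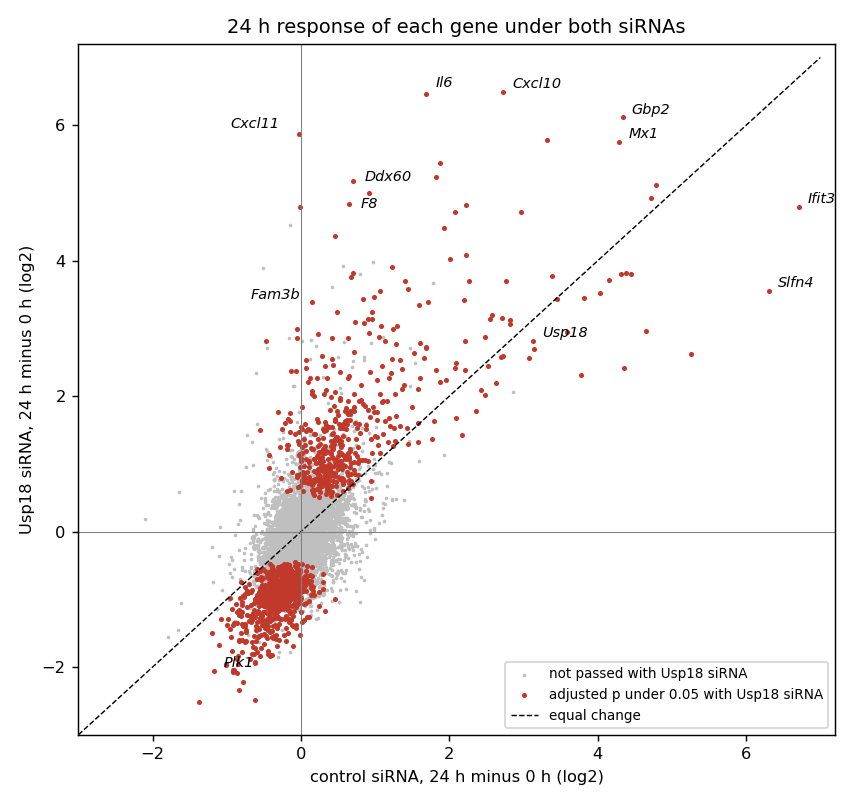
Change between 0 and 24 h of each of the 7163 genes tested, with control siRNA (x axis, log2) and on the arrays labelled Usp18 siRNA (y axis, log2). Red points passed with Usp18 siRNA, and the dashed line marks equal change. Cxcl11 lies at -0.03 on the x axis and 5.87 on the y axis, while Ifit3 and Slfn4 lie to the right of the line.

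The difference between the responses was tested itself, and 2 genes (0.0279%) passed, both larger with Usp18 siRNA. With the replicate block the difference was positive in 15 genes that passed (0.209%) and negative in 1 (0.014%). Fam3b, which encodes a secreted cytokine-like protein, was dim at 3.66 and 3.74 untreated, 4.28 and 4.21 at 6 h and 7.01 and 7.16 at 24 h (3.38 ± 0.17, adjusted p = 6.2e-05). With control siRNA it was at 3.47 and 3.89 and then at 3.91 and 3.73. The difference was 3.24 ± 0.25 (adjusted p = 0.002). F8, coagulation factor VIII, was at 3.95 and 4.45 untreated, 4.72 and 5.29 at 6 h and 8.51 and 9.55 at 24 h (4.83 ± 0.35), and with control siRNA at 4.05 and 3.84 and then at 4.47 and 4.73. The difference was 4.18 ± 0.49 (adjusted p = 0.0435). Both genes passed the filter only through the 2 arrays on which they are high, and without a filter the adjusted p of the difference was 0.00221 for Fam3b and 0.0563 for F8.

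No gene passed with a negative difference without the block (0%), while at an unadjusted p under 0.05 there were 270 positive and 407 negative differences. A negative difference can be a smaller rise or a larger fall with Usp18 siRNA. Without 24 h replicate 1 the difference passed in 148 and 195 genes, without 24 h replicate 2 in none, without replicate 2 at 6 h in 5 positive ones. F8 and Fam3b could not be fitted once either 24 h array of Usp18 siRNA was left out, since they then failed the filter. Without untreated replicates 1 and 2 the adjusted p for F8 was 0.174 and 0.0857, and without any 1 of the 4 control arrays at 0 and 24 h 0.199 to 0.386. The adjusted p for Fam3b stayed under 0.05 in each of those fits.

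Other genes had large differences that passed with the replicate block and not without it, or in neither of these fits. For Il18bp the difference was 3.12 ± 0.45 and for Cxcl11 5.90 ± 0.89, both at an adjusted p of 0.126. Cxcl10 was at 4.43 and 4.69 untreated with control siRNA, 10.73 and 11.19 at 6 h and 7.10 and 7.47 at 24 h, and the difference between the responses was 3.77 ± 0.59 (adjusted p = 0.126). Tap2 (1.45 ± 0.22), Irf1 (2.49 ± 0.41), Il15 (2.35 ± 0.42) and Il6 (4.77 ± 1.28) had adjusted p of 0.126, 0.147, 0.212 and 0.524. Without the block no member of a gene list passed. With it 9 members did: Cxcl10 and Cd86 (adjusted p = 0.00543 each), Cxcl11 (0.0126), Il6 (0.0146), Il18bp and Tlr3 (0.037 each), Irf1 (0.0376), Cd40 (0.045) and Tap2 (0.0495). Each was larger with Usp18 siRNA, and Il15 did not pass (0.0984). Cxcl11, Tap2, Irf1, Il15, Cxcl10 and Il6 were picked after their values were seen.

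Some genes had a smaller change with Usp18 siRNA, and none of the 4 given here passed in either fit. The antiviral gene Ifit3 changed by 4.80 against 6.71 with control siRNA, a difference of -1.91 ± 1.50 (adjusted p = 0.616). Rtp4 changed by 2.62 against 5.26 (-2.64 ± 1.09, adjusted p = 0.524) and Rsad2 by 2.96 against 4.65 (-1.69 ± 0.86, adjusted p = 0.533). The Schlafen gene Slfn4 changed by 3.55 against 6.31 (-2.76 ± 1.25, adjusted p = 0.529). These 4 were picked after their values were seen. Their untreated levels were higher on the arrays labelled Usp18 siRNA: Slfn4 was at 7.79 and 10.93 against 4.95 and 5.87, and Rtp4 at 7.96 and 9.67 against 4.13 and 6.63. With the sign kept, the change with Usp18 siRNA was above that with control siRNA in 11 of the 22 antiviral genes tested. It was so in 13 of 13 chemokines, 16 of 17 inflammatory mediators and 2913 of 7163 genes over all. In this count a larger fall with Usp18 siRNA lies below the control.

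The 6 h arrays place the 24 h changes in time, using replicate 1, since replicate 2 stands apart. At 6 h it was already above both untreated arrays in 368 of the 474 risen genes and below them in 619 of the 662 fallen ones. Over all 7163 genes it was above both in 1332 and below both in 4459, and its array median of 5.59 was the lowest of the 12. The 474 and 662 genes were themselves chosen against the same untreated arrays. Tlr3, Gbp2 and Cxcl10 were near their later level by then, with replicate 1 at 9.38, 11.10 and 11.99 at 6 h against 9.36, 11.66 and 12.20 at 24 h. F8, Fam3b, Cfb and Cxcl11 were not, with replicate 1 at 4.72, 4.28, 5.25 and 4.45 at 6 h against 8.51, 7.01, 8.61 and 9.52.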

How the data were processed

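BV-2 cells were profiled on Affymetrix 3' expression arrays. The authors deposited 1 value per probe set and array, per the series' value table. The deposited values are taken as log2 intensity from their range, because no label states their scale or normalization; the submitters' processing notes name the tool affy. The members and gene lists were chosen with earlier results of these data known. Of 22690 probe sets, 20393 had 1 gene symbol, 691 several and 1606 none listed here. Probe sets above the array median on at least 2 of 12 arrays were kept, and each gene was read by the one of highest mean. limma 3.58.1 in R 4.3.3 fitted 6 group means (6 residual degrees of freedom). No count of reads exists; 2 arrays a group limit the precision. The fit was tested on simulated data with independent noise on each array and a capped spread. Deviations shared by arrays with the same replicate number were not simulated, so that test says nothing about their effect on the calls. Named genes were Usp18, the 15 largest rises and 10 largest falls whose arrays did not overlap, up to 4 called members of a list, and called differences between siRNAs; others given are list members. Deviations of same-numbered arrays from their group means correlated at 0.232 to 0.759 in all 15 pairs of groups, each over 0.1, so the numbers were taken to pair the arrays; the pairing comes from these values, since the labels do not say what a number shares, and the choice was made with both fits known. Alternatives were scaling, filter, probe sets, variance model, arrays used and replicate blocks.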

Additional observations from a re-analysis of the deposited data

Results flagged for a closer look

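Fam3b and F8 were the 2 genes whose 24 h response differed between the siRNAs by limma's test of the difference without the replicate block. For Fam3b the change with Usp18 siRNA exceeded that with control siRNA by 3.24 on the log2 scale. Both 24 h arrays labelled Usp18 siRNA lay above all other BV-2 arrays. For F8 the excess was 4.18, and again both 24 h arrays were above all others. Both genes were dim on the other arrays and passed the filter only through those 2. That the 2 arrays lie above all others therefore follows from the filter and is no further support. Without a filter the adjusted p was 0.00221 for Fam3b and 0.0563 for F8. Neither could be fitted once a 24 h array of Usp18 siRNA was left out.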

How the results depend on the processing

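None of the 79 named genes and none of the differences followed changed sign in a fit that gave a value. List medians near 0 did: the constitutive proteasome went from -0.02 to 0.04 with arrays centred on their median, and without 24 h replicate 2 class II and border macrophage markers went from -0.20 and -0.17 to 0.24 and 0.22. With only the arrays of the groups compared, 11 genes were higher and 0 lower with Usp18 siRNA, and 84 higher and 1 lower with control siRNA. Arrays centred on their median gave 430 lower with Usp18 siRNA. The difference between siRNAs passed in 1 gene after quantile normalization, without a filter or with a trended and robust variance, and in 5 without replicate 2 at 6 h. Leaving out 1 array at a time gave 51 to 764 higher and 4 to 1403 lower with Usp18 siRNA, 1 to 51 higher with control siRNA, and 0 to 148 positive and 0 to 195 negative differences. Of 79 named genes 72 lost the call with the 4 arrays alone, and 5 (Cxcl10, Cxcl11, F8, Il18bp and Fam3b) kept it in every fit that gave a value. F8 and Fam3b had no fit without either 24 h array of Usp18 siRNA, so they were not open to losing the call there. F8 lost its difference with only the groups compared (adjusted p = 0.0635), after quantile normalization (0.0506), without a filter (0.0563) and with a trended and robust variance (0.0573); over all its fits the adjusted p ran from 0.00414 to 0.386. The causes were not tested. For 19 of the 79 genes the lower group was dim, so the size of the change is limited by signal over background.

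With the replicate number as a block, 779 genes were higher and 1272 lower with Usp18 siRNA, 100 and 7 with control siRNA, and 15 and 1 differed between siRNAs. With the block set within each siRNA, the counts were 866 and 1411, 124 and 11, and 28 and 1. All 79 named genes kept their call under both blocks, and the first block gave a call to 30 further genes of those on the lists, named or apart on 1 array, and ended none of theirs.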

Other observations

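In several genes the 24 h arrays labelled Usp18 siRNA were far apart. Il10, an anti-inflammatory cytokine, was at 4.05 and 4.17 untreated and at 5.61 and 10.41 at 24 h (3.90 ± 1.60, adjusted p = 0.123 in limma). Ms4a6b, a membrane protein of macrophages, was at 2.53 and 4.65 and then at 6.36 and 9.87 (4.53 ± 2.10, adjusted p = 0.164). With control siRNA both stayed between 2.79 and 4.30. Csf3, the granulocyte growth factor, and Edn1, a vasoconstrictor peptide, were at 9.46 and 9.45 on 24 h replicate 2 and at most at 5.90 and 6.19 on any other BV-2 array. Neither passed (adjusted p = 0.127 and 0.0584), and with the replicate block Edn1 did (0.0204). Ptx3, a secreted pattern recognition protein, was at 10.64 on that array and at most at 8.17 elsewhere, and Batf2, a transcription factor, at 8.53 and at most at 6.42. Both of these rose, by 2.82 ± 0.74 and 2.86 ± 0.53 (adjusted p = 0.0347 and 0.0126). These genes were picked after their values were seen.

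Kcnab1, a subunit of potassium channels, had a modest and even rise. It was at 4.38 and 4.15 untreated, 5.47 and 5.85 at 6 h and 6.73 and 6.38 at 24 h (2.29 ± 0.18, adjusted p = 0.000446), with both 24 h arrays above all other BV-2 arrays. Kcnab1 was dim on the untreated and control arrays, so the size of its rise is uncertain. It passed the filter only through those 2 arrays and replicate 2 at 6 h, so their place above the others is no further support. With control siRNA the change was 0.65 ± 0.18, and the difference of 1.64 ± 0.26 did not pass (adjusted p = 0.126, and 0.0502 with the block). It too was picked after its values were seen.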
